A study of Mus musculus with 3 samples.

Results

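The BCL2 family genes described here are 10 mouse genes chosen by symbol and not by their level, out of 22698 genes with a value in each file. They comprise 4 survival genes (*Bcl2*, *Bcl2l1*, *Bcl2l2*, *Mcl1*) and 6 death genes, of which 2 encode the pore-forming effectors (*Bax*, *Bak1*) and 4 encode BH3-only proteins (*Bid*, *Bbc3*, *Pmaip1*, *Bcl2l11*). All 10 were found in the files by Ensembl identifier. Their RNA was measured by RNA-seq in untreated melan-a cells, an immortalized mouse melanocyte line on the C57BL/6J background. The labels give the cells as melanocytes of Ink4a-ARF-/- mice. They were grown in RPMI medium with 10% fetal bovine serum, 200 nM 12-O-tetradecanoylphorbol 13-acetate (a phorbol ester) and 200 pM cholera toxin, and there was no other condition. The 3 replicates carry the numbers 1, 3 and 4 and come from 1 line, so the SDs given below measure the spread between these samples of a single line. Values are FPKM, reads divided by the length of the gene and the size of the library, scaled between libraries by the authors.

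Proteins of the BCL2 family decide at the mitochondrial outer membrane whether a cell under stress dies. When activated, BAX and BAK form pores in that membrane and cytochrome c escapes, which leads to caspase activation. The survival proteins hold BAX and BAK in check, and the BH3-only proteins either block the survival proteins or activate the effectors directly. In the melanocyte lineage the family is known from *Bcl2* mutant mice, whose coats turn gray as melanocytes are lost.

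Survival and death proteins share a short helix, the BH3 domain, through which death proteins dock into a groove of the survival proteins. Its core was located in the longest coding sequence of each member, as a leucine or methionine, 2 residues of any kind, a hydrophobic residue (alanine, valine, isoleucine, leucine, methionine or phenylalanine), a glycine or alanine, and an aspartate. All 10 members held it, against 10.96% of 22737 coding genes. These genes are known for this domain, and the pattern allows the methionine of *Bcl2l2* and the alanine of *Bbc3*. Their full share is therefore a description and not a test. The coding DNA is shown for 9 members because the helix is what unites survival and death genes that otherwise differ widely in level. *Pmaip1*, with 2 matches, is not shown. Each line gives 30 bases of the mm9 coding strand, from 2 codons before the core, with the codons of the leucine or methionine and of the last 2 core residues in capitals.
Bcl2: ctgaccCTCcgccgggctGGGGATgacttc
Bcl2l1: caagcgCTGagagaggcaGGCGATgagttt
Bcl2l2: caagccATGcgggctgctGGAGACgagttt
Mcl1: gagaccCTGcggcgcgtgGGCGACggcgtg
Bax: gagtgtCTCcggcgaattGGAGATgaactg
Bak1: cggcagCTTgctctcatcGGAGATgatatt
Bid: agacatCTCgcccaaataGGCGATgagatg
Bbc3: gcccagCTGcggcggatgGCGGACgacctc
Bcl2l11: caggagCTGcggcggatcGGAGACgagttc

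In 8 of these 9 sequences the first capital codon encodes leucine, and in *Bcl2l2* it encodes methionine. The residue before the aspartate is glycine in 8 and alanine in *Bbc3*. Each stretch lies within a single coding exon. A match describes the letters of the coding sequence only.

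The depth of the libraries was estimated from low values of genes with 1 annotated transcript, which fall on whole reads. After the authors' scaling it lay between 46800000 reads, in replicate 3, and 66200000 reads, in replicate 4. The melanocyte label was checked against 7 markers, all of which lay above 1 FPKM in every replicate with a median of their means of 576 FPKM. The summed level of 4 keratinocyte markers was at most 0.7 FPKM in any replicate, that of 4 fibroblast markers at most 0.23 and that of 4 blood and endothelial markers 0.01 in each. *Cdkn2a*, the gene of INK4A and ARF, was measured at 19.24, 16.49 and 24.32 FPKM in replicates 1, 3 and 4, although the labels give the cells as Ink4a-ARF-/-. A value for the whole gene does not show which of its exons were read.

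*Bcl2l1*, which encodes BCL-XL, was the highest of the survival genes, with 95.71, 112.06 and 81.17 FPKM in replicates 1, 3 and 4 (mean 96.3 ± 15.5 FPKM, SD, n = 3). It stood at rank 611 of 22698 genes. It lies at chr2:152593052-152657464 on the minus strand of mm9, with its BH3 core in the coding exon at chr2:152655436-152655465. *Mcl1*, whose protein is turned over quickly and must be made continuously, came next with 32.6, 30.36 and 27.26 FPKM (mean 30.1 ± 2.7 FPKM, SD, n = 3). Within each library *Bcl2l1* exceeded *Mcl1*, by 2.94-fold, 3.69-fold and 2.98-fold, and the ranges of the 2 genes did not overlap. *Mcl1* lies on the plus strand at chr3:95462643-95467099, and its BH3 core at chr3:95463353-95463382.

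The remaining 2 survival genes were an order of magnitude lower than *Bcl2l1*. *Bcl2l2*, which encodes BCL-W, had 6.89, 7.22 and 7.92 FPKM in replicates 1, 3 and 4 (mean 7.34 ± 0.53 FPKM, SD, n = 3). *Bcl2*, the founding member and the one whose loss turns the coat gray, had 5.13, 4.29 and 5.28 FPKM (mean 4.90 ± 0.53 FPKM, SD, n = 3), at rank 7455. *Bcl2* was the lowest survival gene in all 3 replicates, and as deposited *Bcl2l1* exceeded it by 18.7-fold, 26.1-fold and 15.4-fold. Low FPKM did not mean few reads here, since the joined exons of *Bcl2* are 7191 bases long and its values correspond to about 1988, 1444 and 2514 reads. *Bcl2* occupies chr1:108434755-108610851 on the minus strand (BH3 core chr1:108609155-108609184), and *Bcl2l2* occupies chr14:55502214-55507071 on the plus strand (BH3 core chr14:55503348-55503377). The *Bcl2l2* annotation shares 594 of its 4462 exon bases (13.3%) with a same-strand gene model, *Gm20521*, that is listed at 0 in every replicate. How reads in the shared bases were assigned is not given in the sources used here. On the opposite strand, *Bcl2* shares 558 exon bases (7.76%) with *D630008O14Rik*.

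As deposited, both effector genes were higher than any other member in every library, although *Bcl2l1* was above both when length was taken as that of the coding sequence or the longest transcript, as set out further on. *Bax* had 132.25, 160.46 and 121.67 FPKM in replicates 1, 3 and 4 (mean 138.1 ± 20.1 FPKM, SD, n = 3), and ranked 387 among all genes. *Bak1* had 127.56, 151 and 104.65 FPKM (mean 127.7 ± 23.2 FPKM, SD, n = 3), and ranked 429. Each of the pair can permeabilize the outer membrane without the other, and their levels were close: *Bax* exceeded *Bak1* in 3 of 3 replicates, by 1.04-fold, 1.06-fold and 1.16-fold, while their ranges overlapped. Both were highest in replicate 3 and lowest in replicate 4, as was *Bcl2l1*. *Bax* lies on the minus strand at chr7:52717065-52722268 with its BH3 core at chr7:52721370-52721399. *Bak1* lies on the minus strand at chr17:27156755-27165954 with its core at chr17:27159479-27159508, and shares 357 exon bases (14.8%) with *Ggnbp1* on the opposite strand, which was at 0.16, 0.19 and 0.24 FPKM.

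The BH3-only genes were low, between 3.87 and 12.17 FPKM for 3 of them and at most 0.06 FPKM for *Pmaip1*. *Bid*, whose protein is cut by caspase 8 and so links death receptors to mitochondria, had 12.17, 11.07 and 11.8 FPKM in replicates 1, 3 and 4 (mean 11.68 ± 0.56 FPKM, SD, n = 3). *Bcl2l11*, which encodes BIM, the BH3-only protein that responds to loss of growth factors, had 4.11, 4.29 and 4.38 FPKM (mean 4.26 ± 0.14 FPKM, SD, n = 3). Its coefficient of variation was 3.23%, the smallest of the 10 members, and 7.07% of the 3380 genes within 2-fold of its level varied less. *Bbc3*, the p53 target that encodes PUMA, had 4.34, 4.15 and 3.87 FPKM (mean 4.12 ± 0.24 FPKM, SD, n = 3). *Bcl2l11* and *Bbc3* did not differ beyond their spread, since *Bbc3* was the higher in replicate 1 and the lower in replicates 3 and 4.

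*Pmaip1*, which encodes NOXA, a further p53 target that binds mainly MCL-1, was close to the limit of detection. It had 0.01, 0.05 and 0.06 FPKM in replicates 1, 3 and 4, which corresponds to about 1, 6 and 11 reads on 2646 exon bases. The value of replicate 1 was below the 0.021 FPKM that 3 reads would give there, and those of replicates 3 and 4 were above their limits of 0.024 and 0.017. *Trp53*, the gene of p53 itself, was measured at 83.11, 90.53 and 85.32 FPKM in the same libraries. The mm9 position of *Pmaip1* is chr18:66618258-66625204 on the plus strand. *Bid* is at chr6:120841948-120866871 on the minus strand, and its BH3 core at chr6:120847310-120847339. *Bbc3* is at chr7:16894965-16903554 (core chr7:16899116-16899145) and *Bcl2l11* at chr2:127951774-127988283 (core chr2:127972880-127972909), both on the plus strand.

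**Figure D1:**
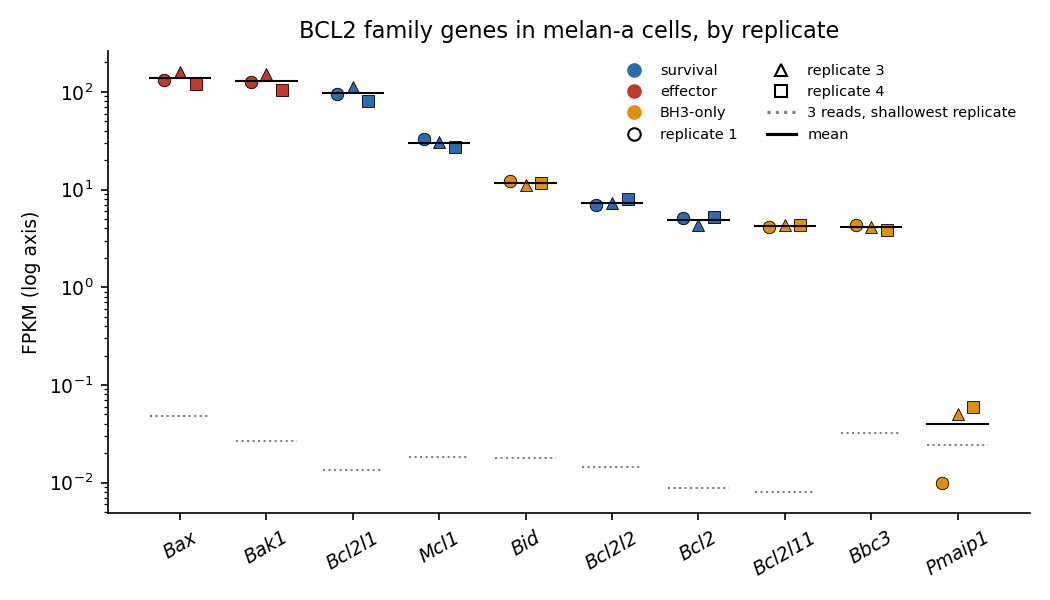
FPKM of each BCL2 family gene (log axis) in replicates 1, 3 and 4 of melan-a cells, ordered by mean (black line) and colored by role, with the FPKM that 3 reads would give in the shallowest replicate as a dotted line. *Bax*, *Bak1* and *Bcl2l1* lie between 81.17 and 160.46 FPKM, and *Pmaip1* lies between 0.01 and 0.06 FPKM.

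Ordered by mean FPKM as deposited, the members ran *Bax*, *Bak1*, *Bcl2l1*, *Mcl1*, *Bid*, *Bcl2l2*, *Bcl2*, *Bcl2l11*, *Bbc3* and *Pmaip1*. The 3 replicate ranges overlapped between *Bax* and *Bak1*, between *Bak1* and *Bcl2l1*, between *Bcl2* and *Bcl2l11* and between *Bcl2l11* and *Bbc3*. Both genes of a pair are read in the same library, and within libraries *Bak1* exceeded *Bcl2l1* by 1.33-fold, 1.35-fold and 1.29-fold, a mean log2 ratio of 0.40 ± 0.03 (SD, n = 3). For *Bax* over *Bak1* it was 0.12 ± 0.09 (SD, n = 3), with *Bax* higher in 3 of 3 replicates. For *Bcl2* over *Bcl2l11* it was 0.20 ± 0.17 (SD, n = 3), with *Bcl2* higher in 2 of 3 replicates and equal in replicate 3. For *Bcl2l11* over *Bbc3* it was 0.05 ± 0.13 (SD, n = 3), so that this last pair did not differ beyond its spread. Neither of these last pairs held its order in all replicates. The other 5 pairs of neighbours had separate ranges. Of the 10 members, 9 had at least 1 FPKM in every replicate, against 44.1% of all 22698 genes. The median of the 10 means was 9.51 FPKM, against 0.277 FPKM over all genes, of which 7135 were listed at 0 in every replicate. Among genes of at least 1 FPKM in every replicate the medians were close, 11.68 FPKM for the 9 members and 11.15 FPKM for all genes.

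To set survival against death genes, FPKM was summed over each side within each library. The 4 survival genes summed to 140.3, 153.9 and 121.6 FPKM in replicates 1, 3 and 4, and the 6 death genes to 280.4, 331.0 and 246.4 FPKM. Survival genes thus reached 0.50, 0.465 and 0.494 of the death genes, a mean log2 ratio of -1.04 ± 0.06 (SD, n = 3), with the death side higher in 3 of 3 replicates. An exact two-sided sign-flip permutation test of the 3 log2 ratios gave p = 0.25, the smallest value that 3 replicates allow, also after Benjamini-Hochberg adjustment over the 3 ratios tested here. The sum of the death side was almost wholly that of its effectors, with *Bax* holding 48.3% ± 1.1 and *Bak1* 44.5% ± 1.8 (SD, n = 3). On the survival side *Bcl2l1* held 69.2% ± 3.2, *Mcl1* 21.8% ± 1.8, *Bcl2l2* 5.37% ± 0.99 and *Bcl2* 3.59% ± 0.78 (SD, n = 3).

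The 2 kinds of death genes stood on opposite sides of the survival sum. Against the effectors, which summed to 259.8, 311.5 and 226.3 FPKM, the survival sum was 0.54, 0.494 and 0.537 as high (mean log2 ratio -0.93 ± 0.07, SD, n = 3). Against the 4 BH3-only genes, which summed to 20.63, 19.56 and 20.11 FPKM, it was 6.8-fold, 7.87-fold and 6.05-fold higher (mean log2 ratio 2.78 ± 0.19, SD, n = 3). Both directions held in 3 of 3 replicates, and both exact sign-flip permutation tests gave p = 0.25. The sum follows its highest genes, and when each side was described instead by the mean of log2(FPKM + 1) over its genes, survival genes stood above death genes by 0.53 ± 0.05 (SD, n = 3), because *Pmaip1*, *Bbc3* and *Bcl2l11* then count as much as *Bax*. Sums of RNA do not measure the balance of proteins, which also depends on their stability and binding.

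**Figure D2:**
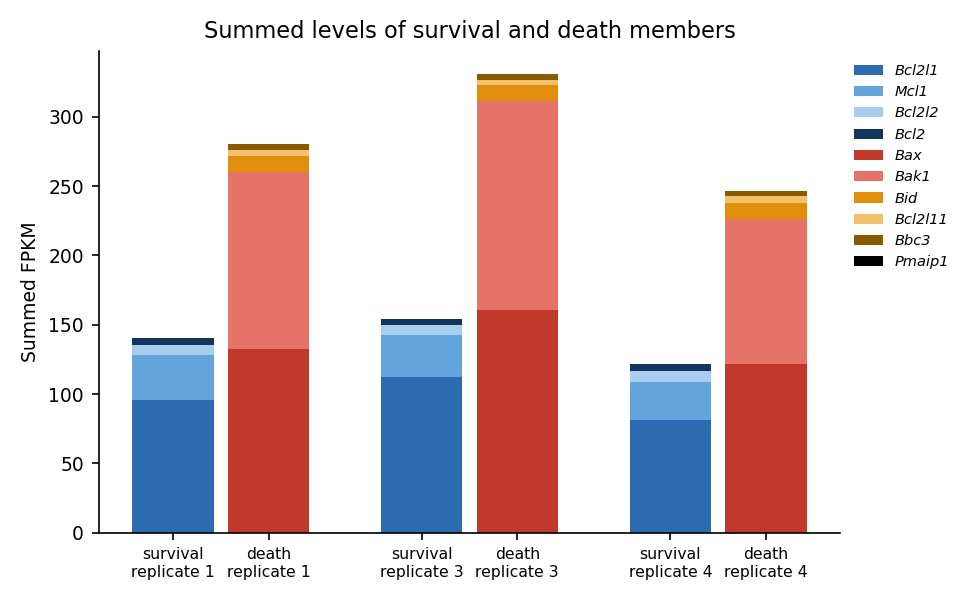
Summed FPKM of the 4 survival genes and the 6 death genes in each replicate, stacked by gene from 0. The death bars reach 280.4, 331.0 and 246.4 FPKM and consist mostly of *Bax* and *Bak1*, and the survival bars reach 140.3, 153.9 and 121.6 FPKM and consist mostly of *Bcl2l1*.

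The length by which reads are divided bore on every comparison between members. For genes with several transcripts the files fitted the length of all annotated exons joined better than that of the longest transcript (mean distance from a whole read 0.137 against 0.255 over 37 low values). That length was 4734 bases for *Bcl2l1*, with 10 annotated transcripts of at most 2417 bases, and 1339 bases for *Bax*, with 2 transcripts of at most 1049 bases. *Bcl2*, *Mcl1* and *Pmaip1* have 1 annotated transcript each. Per kilobase of the longest transcript, *Bcl2l1* had 188.6 ± 30.3, *Bax* 176.3 ± 25.6 and *Bak1* 128.8 ± 23.4 on the same library scale (SD, n = 3), so that *Bcl2l1* came first. Per kilobase of coding sequence the order was *Bcl2l1* at 644 ± 103, *Bak1* at 488 ± 89 and *Bax* at 319 ± 46 (SD, n = 3).

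The change to coding length raised most the values of members whose coding sequence is a small part of their joined exons. *Bcl2* has 711 coding bases of 7191 and *Bcl2l11* 591 of 8029, and per coding kilobase they had 49.6 ± 5.4 and 57.9 ± 1.9 (SD, n = 3). *Bcl2l11* then stood 4.07-fold above *Bbc3*, against 1.03-fold as deposited. It was then also above *Bcl2*, as it was per longest transcript (6.79 against 4.90). *Bcl2* remained the lowest survival gene. *Pmaip1* remained lowest under each of the 3 lengths, and *Bcl2l1* remained above *Mcl1*. The ratio of *Bcl2l1* to *Mcl1* was 3.18 as deposited (geometric mean), 6.27 per longest transcript and 6.12 per coding sequence. That of *Bcl2l1* to *Bcl2* was 19.6 as deposited (geometric mean), 38.5 per longest transcript and 13 per coding sequence. The mean log2 ratio of survival to death genes was -0.52 per longest transcript and -0.15 per coding sequence, and that of survival to effector genes turned to 0.089 per coding sequence. Gene-level values do not separate the splice forms of *Bcl2l1*, *Mcl1* or *Bcl2l11*, whose products can differ in activity.

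**Figure D3:**
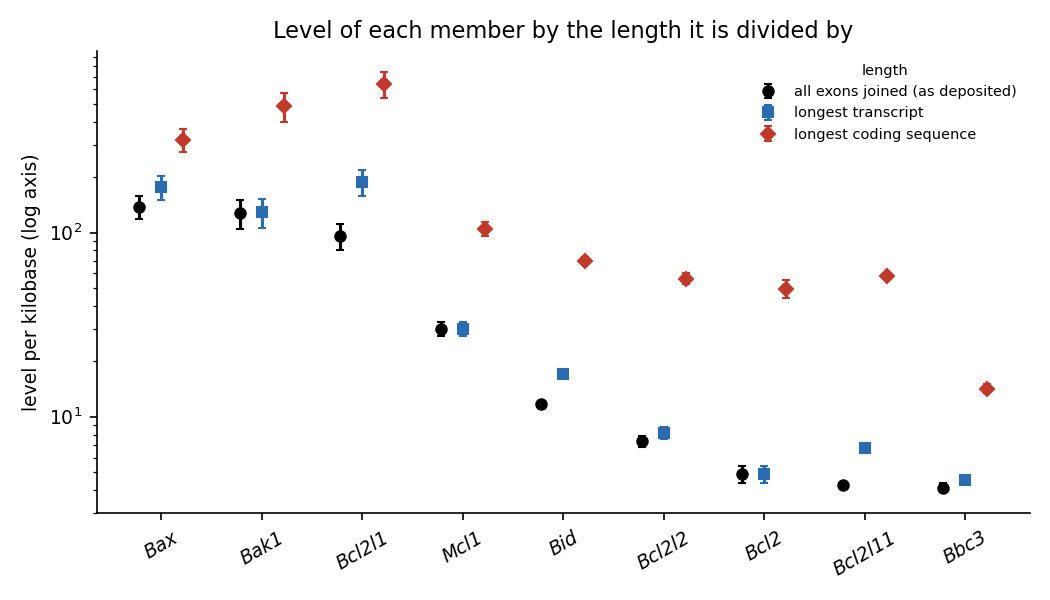
Mean level per kilobase (log axis) of the 9 members above 1 FPKM, as deposited and after dividing by the length of the longest transcript or of the longest coding sequence, with SD bars over 3 replicates. As deposited, *Bax* is highest at 138.1, and per coding sequence *Bcl2l1* is highest at 644.

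Differences between replicates were unequal among the members. For *Bak1*, *Bcl2l1*, *Bax* and *Bcl2* they went in the direction of the trend with transcript GC content over all genes. Between replicates 3 and 4, *Bak1* (57.1% GC) had a log2 ratio of 0.53, *Bcl2l1* (56.4% GC) of 0.47 and *Bax* (62.6% GC) of 0.40. *Bcl2*, with the lowest GC content of the 9 members above 1 FPKM (46.3%), had -0.30. Replicate 1 lay between the other two for these 4 genes. Over all 10011 genes of at least 1 FPKM in every replicate the SD of this ratio was 0.459, and 90.9% of them had a lower ratio than *Bak1*, 25.7% a lower ratio than *Bcl2*. Genes with the GC content of *Bak1* had a median of 0.38, and those with that of *Bcl2* had -0.26.

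After each replicate was adjusted by the median deviation of genes of like GC content, the log2 ratio of replicates 3 and 4 was 0.15 for *Bak1*, 0.13 for *Bcl2l1*, -0.19 for *Bax* and -0.04 for *Bcl2*. *Bbc3*, with the highest GC content of the members (65.2%), fell short of the trend over all genes. Its ratio was 0.10, where the last GC bin of all genes, which was used for *Bbc3* and *Bax*, had a median of 0.59, and adjustment left it at -0.48. *Mcl1* (49.1% GC) had 0.16 before and 0.23 after adjustment, and *Bcl2l2* (53.4% GC) had -0.13 and -0.32. *Bid* (51.3% GC) had -0.09 and -0.17, and *Bcl2l11* (48.0% GC) had -0.03 and 0.12. For *Bbc3*, *Mcl1*, *Bcl2l2*, *Bid* and *Bcl2l11* the ratio was thus larger in size after adjustment. Of the 9 members 5 were higher in replicate 3 than in replicate 4, and 4 were after adjustment. The median log2 ratio over all 10011 genes was 0.0189 before adjustment, so these counts show nothing particular to the members. The mean log2 ratio of survival to death genes was -1.04 before and after, a mean over replicates that this adjustment can hardly move. The origin of the relation to GC content was not tested, and these replicates also differ in depth.

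**Figure D4:**
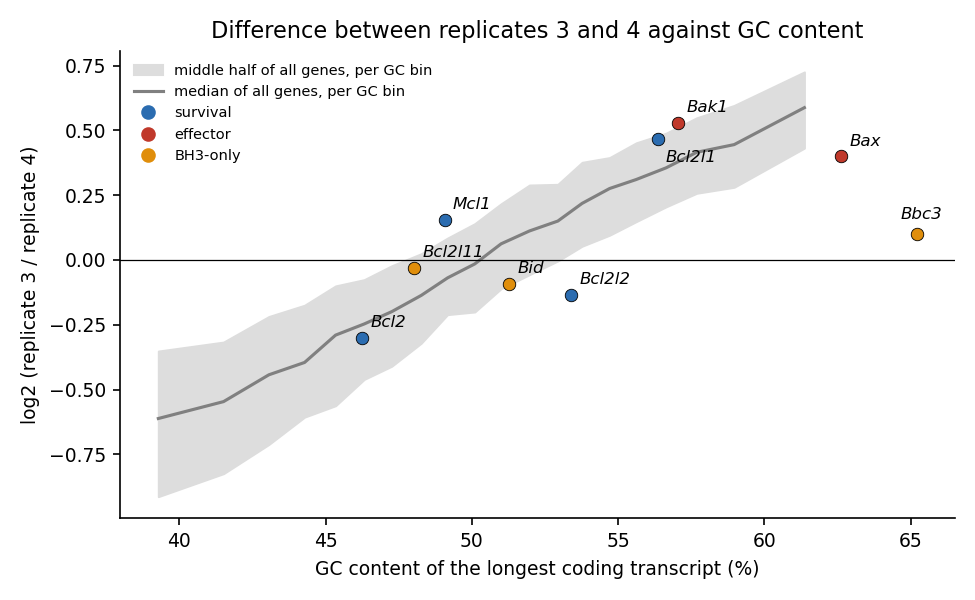
Log2 ratio of replicate 3 to replicate 4 against transcript GC content for the 9 members above 1 FPKM, colored by role, with the median and middle range (25th to 75th percentile) of all genes per GC bin in gray. *Bak1* (0.53) and *Bcl2l1* (0.47) lie just above the line, and *Bax* (0.40) and *Bbc3* (0.10) lie beyond its end and below the 0.59 of the last bin.

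The family has further genes, and their levels set the 10 members in context. Of the 17 listed, 7 had at least 1 FPKM in every replicate (41.2%), a share close to the 44.1% of all genes. *Bad*, a BH3-only protein that growth factor signaling holds inactive by phosphorylation, had 20.78, 25.88 and 17.07 FPKM (mean 21.2 ± 4.4 FPKM, SD, n = 3), above *Bid* in 3 of 3 replicates, although per coding sequence the 2 were nearly level (ratio 0.983). *Bmf*, a BH3-only protein linked to the cytoskeleton, had 4.5, 4.91 and 4.17 FPKM, above *Bcl2l11* in 2 of 3 replicates. The ratio of *Bmf* to *Bcl2l11* was 1.06 as deposited, 0.754 per longest transcript and 0.504 per coding sequence. With the other genes of each role added, the survival sum was 3.02-fold that of the BH3-only genes, in place of 6.87-fold (geometric means). *Bik* had 0.04, 0.02 and 0.06 FPKM, about 2, 1 and 4 reads, and *Hrk* was listed at 0 in all 3, where 3 reads would give at most 0.012 FPKM.

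No survival gene outside the 4 members reached the level of 3 reads. *Bcl2l10* was listed at 0, 0 and 0.01 FPKM, about 1 read. The mouse copies of the gene for BFL-1, *Bcl2a1a*, *Bcl2a1b*, *Bcl2a1c* and *Bcl2a1d*, were listed at 0 in all replicates. The coding sequences of *Bcl2a1a*, *Bcl2a1b* and *Bcl2a1d* are 97.9% to 98.8% identical, and reads that align to several copies may have been discarded, so that these zeros are uncertain. *Bcl2a1b* also shares 49.1% of its exon bases with *Mthfs* on the same strand. *Bok*, an effector relative of *Bax* and *Bak1*, had 0.26, 0.3 and 0.18 FPKM (mean 0.247 ± 0.061 FPKM, SD, n = 3), far below both.

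Of 7 more distant relatives 5 (71.4%) had at least 1 FPKM in every replicate, against 44.1% of all genes. *Bnip3* (13.8 ± 0.8 FPKM) and *Bnip3l* (19.6 ± 2.1 FPKM, SD, n = 3 each) encode receptors that mark mitochondria for autophagy, and *Becn1* (20.6 ± 1.1 FPKM) encodes the autophagy protein Beclin 1, which carries a BH3 domain. *Bcl2l13* had 11.7 ± 1.1 FPKM and *Bcl2l12* 9.32 ± 1.11 FPKM (SD, n = 3 each). *Bcl2l15* lay between 0.01 and 0.05 FPKM, and *Bcl2l14* was listed at 0. Several of these genes overlap neighbours on the other strand, among them *Becn1* (43.9% of its exon bases), *Bcl2l12* (33.4%) and *Bad* (25.8%), and *Bid* and *Bcl2l13* share 628 bases, 17.7% of those of *Bid*. Whether reads were counted by strand is not given in the sources used here.

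Downstream and upstream of the members, 30 of 33 listed genes (90.9%) had at least 1 FPKM in every replicate, against 44.1% of all genes. The median of the 33 means was 11.0 FPKM. It was 15.24 FPKM for the 30, against 11.15 FPKM for all genes that reached 1 FPKM in every replicate. The other three were *Cycs*, *Birc3* and *Fas*. In the apoptosome and caspase list, *Casp2* had 10.5 ± 0.6 FPKM, *Casp6* 9.87 ± 1.73 FPKM and *Casp8*, whose protein cuts BID, 9.08 ± 2.23 FPKM (SD, n = 3 each). *Casp9*, the caspase gene of the apoptosome, had 8.06 ± 0.12 FPKM, *Apaf1*, which encodes its scaffold, 3.74 ± 0.75 FPKM and *Cycs* 0.887 ± 0.144 FPKM (SD, n = 3 each). *Cycs*, which encodes cytochrome c, has many processed pseudogene copies, so reads may have been lost to multiple alignments and its low value is uncertain. The highest levels of these lists were those of outer membrane channels, with *Vdac1* at 173.8 ± 13.6 FPKM and *Vdac2*, a channel that binds BAK, at 127.5 ± 1.0 FPKM (SD, n = 3 each). As deposited they lay beside *Bax* and *Bak1*. Per kilobase of the longest transcript *Vdac2* had 291.3 and *Vdac1* 225.2, against 176.3 for *Bax* and 128.8 for *Bak1*. *Mtch2*, a receptor for truncated BID, had 36.3 ± 1.7 FPKM, *Vdac3* 26.3 ± 0.8 FPKM and *Opa1*, whose protein shapes the inner membrane, 8.0 ± 1.7 FPKM (SD, n = 3 each).

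Of the inhibitors of apoptosis and their antagonists, *Diablo* (32.6 ± 2.4 FPKM), which encodes the antagonist SMAC, was highest, followed by *Birc5* (22.9 ± 1.9 FPKM), which encodes survivin, and *Htra2* (18.6 ± 1.6 FPKM, SD, n = 3 each). *Birc6* had 7.27 ± 2.22 FPKM, *Birc2* 3.33 ± 1.40 FPKM and *Birc3* 1.10 ± 0.23 FPKM (SD, n = 3 each). In the death receptor arm, the TNF receptor gene *Tnfrsf1a* had 108.0 ± 11.9 FPKM and *Fas* 0.41 ± 0.10 FPKM. Between them lay *Tnfrsf10b* (19.8 ± 2.7 FPKM), the receptor gene for the ligand TRAIL, *Fadd* (11.9 ± 1.7 FPKM), the adaptor gene, and *Cflar* (8.22 ± 1.34 FPKM, SD, n = 3 each), whose protein restrains caspase 8.

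Among 10 regulators of the members the highest were *Trp53* (86.3 ± 3.8 FPKM), *Mdm2* (34.3 ± 7.7 FPKM), whose protein degrades p53, and *Huwe1* (28.7 ± 4.3 FPKM, SD, n = 3 each), whose protein marks MCL-1 for degradation. The lowest were *Foxo1* (7.80 ± 0.87 FPKM), *Usp9x* (6.84 ± 1.74 FPKM), whose protein stabilizes MCL-1, and *Fbxw7* (1.91 ± 0.08 FPKM, SD, n = 3 each), which directs MCL-1 to the proteasome. All 10 were above 1 FPKM in every replicate, against 44.1% of all genes. No test between conditions was possible for any of these lists, since the files hold 1 condition.

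**Figure D5:**
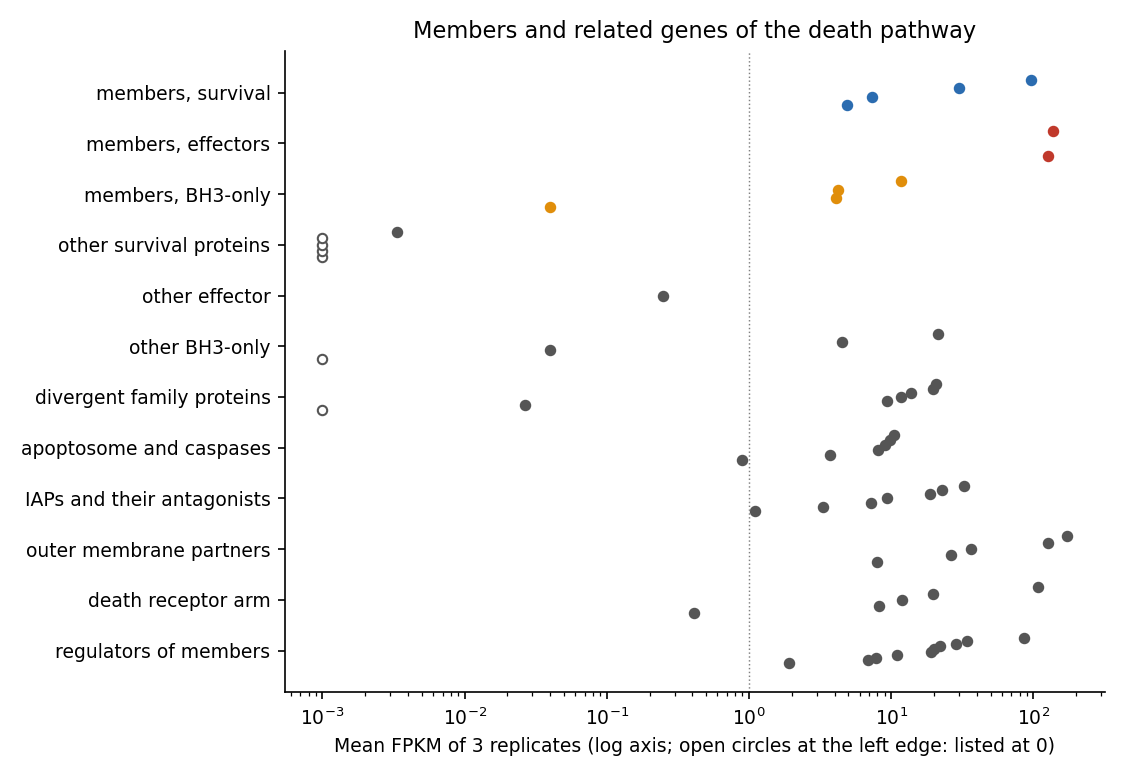
Mean FPKM of 3 replicates (log axis) for the 10 members, colored by role, and for the other family and pathway genes in gray, 1 point per gene, with open circles for genes listed at 0 and a dotted line at 1 FPKM. Vertical offsets within a list only separate the points. As deposited, the effectors *Bax* and *Bak1* lie beside *Vdac1* and *Vdac2*, and the survival genes outside the members lie at or near 0.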

How the data were processed

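Stranded mRNA libraries of 3 melan-a replicates were sequenced by the authors over 3 lanes each. They trimmed the 10 5'-most bases, aligned reads to mm9 with STAR 2.3.0e, removed rRNA reads and counted with HTSeq 0.5.3p3 on Ensembl release 67. Their deposited values are FPKM with TMM scaling between libraries, given to 2 decimals. The submitters' processing notes name edgeR, but how counts became FPKM is not given in the sources used here.

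An mm9 gene set matching Ensembl 65 supplied positions, exon lengths and GC content; 374 of the 22698 genes had no entry there. Read numbers are FPKM multiplied by joined exon length and estimated library size, and 3 reads were taken as the smallest measurable level. Coding sequences for the BH3 search came from the same annotation. Levels are described by mean and SD, and log2 ratios of summed FPKM were tested with an exact sign-flip permutation test. GC adjustment used 20 bins of genes that reached 1 FPKM in every replicate. Scripts, tested on simulated data, used biopython 1.88, scipy 1.17.1, matplotlib 3.10.9, pandas 2.3.3 and numpy 2.4.6 under Python 3.11.15. The text names all members, all other family genes, and the 3 highest and 3 lowest genes of each pathway list (all of a list with 6 or fewer). No gene was named for a likeness in pattern, since 3 replicates of 1 condition give none to match. The members and lists were chosen with earlier results of these data known. Some genes of the caspase list are not reported here.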

Additional observations from a re-analysis of the deposited data

How the results depend on the processing

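The ratios of summed levels depended on how each side was summarised. As mean log2 ratios, survival to death genes moved from -1.04 to 0.53 with the mean of log2(FPKM + 1), to 1.01 with log2(FPKM + 0.1), to -1.17 with the other family genes added, to -1.79 without the highest gene of each side, to -0.15 per coding sequence and to -0.52 per longest transcript. Under the same settings, survival to effector genes moved from -0.93 to -2.76, -2.87, -0.94 (within its spread), -1.58, 0.089 and -0.39. Survival to BH3-only genes moved from 2.78 to 2.17, 2.95 (within its spread), 1.59, 2.33, 2.57 and 3.01. With 1 replicate left out these ratios ranged from -1.06 to -1.01, from -0.96 to -0.89 and from 2.68 to 2.87. GC adjustment and leaving out *Pmaip1* moved none of the 3 beyond its spread, but neither could have moved them much. The adjustment works on deviations from the mean of each gene over the replicates, so it hardly changes that mean. *Pmaip1* held only 0.0143% of the death sum and 0.201% of the BH3-only sum. The levels of all 10 members stayed within 1 SD after GC adjustment, which therefore shows little about their stability. With 3 replicates, leaving out a replicate or taking the median cannot move a mean by more than 1 SD, and rescaling or another length changes the unit, so that these settings show nothing about the stability of a level. At least 1 FPKM was reached by 9 members under every setting tried, but these 9 could hardly have fallen below it. Rescaling, a shorter length or fewer replicates can only raise the lowest value of a member, and GC adjustment shifts values little. Depth limits *Pmaip1*, whose values rest on about 1 to 11 reads. The exact test cannot go below p = 0.25 with 3 replicates. Both sides of each ratio came from the same library, so this test was paired within libraries. No paired analysis between groups was possible because there is 1 group of samples.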
